A study of Mus musculus with 12 samples.

Results

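The genes described here encode E2F transcription factors and the RB family of mouse, which together set the entry of a cell into S phase. They were 10 of the 19309 genes measured: the activators E2f1, E2f2 and E2f3, the repressors E2f5, E2f6, E2f7 and E2f8, and the pocket proteins Rb1, Rbl1 and Rbl2. E2f4, a further E2F gene, was measured but is not among the 10, and its values are given with the DP and MuvB genes. The symbols came from a list of the family, and each gene was read from its brightest single-symbol probe set, judged by the mean of the 12 arrays, which all 10 genes had. Thymus RNA of the FVB/N strain was hybridised to whole-transcript arrays, 1 array a sample, in 3 groups. The first group held 4 MYC-induced T-cell lymphomas of genotype Dnmt3a-deficient at the terminal stage, in which the de novo DNA methyltransferase Dnmt3a had been deleted in the hematopoietic compartment. The second held 5 MYC-induced lymphomas with the Dnmt3a genotype labelled wild type, also terminal, called control tumors. The third held 3 samples of non-tumor wild-type thymocytes, labelled with an age of 24 dpn. Both tumor groups arose with MYC, and the labels name neither the promoter of MYC nor the Cre line.

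E2F proteins bind DNA as dimers with a DP partner and switch on genes for DNA synthesis. In resting cells the pocket proteins RB (Rb1), p107 (Rbl1) and p130 (Rbl2) hold E2F factors in repressing complexes, until cyclin-dependent kinases phosphorylate them. E2F1 to E2F3 are activators bound mainly by RB, E2F5 acts with p130 and p107, E2F6 represses without a pocket protein, and the atypical factors E2F7 and E2F8 repress without a DP partner. MYC raises the transcription of activator E2F genes in other cell systems, and thymocytes pass through bursts of division before they become small resting cells.

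Values are log2 signals as deposited, and a log2 difference of 1 is a 2-fold difference in signal. A gene was called when its limma p, adjusted by the Benjamini-Hochberg method over all 19309 genes, was under 0.05. The labels do not say whether the arrays came from different animals, and the p-values describe only the variation among these samples, which may be technical. Tumors and thymocytes differ in stage of disease and in the age label together, and no batch is given, so these cannot be told apart from the group. Dnmt3a had log2 levels of 7.19 to 7.62 in deficient tumors, 8.19 to 9.57 in control tumors and 9.33 to 9.63 in normal thymocytes. Its difference from thymocytes in control tumors was -0.82 (limma adjusted p = 0.0295), a call lost in 9 of 17 alternatives. Without control tumors 1 and 2 it was -0.74 (adjusted p = 0.0838). Between deficient and control tumors Dnmt3a differed by -1.25 (adjusted p = 0.0317), a call lost in 5 of 18 alternatives. The pan-T markers Cd3e, Cd3g and Thy1 had log2 levels of 10.35 to 12.54 over all arrays. Of these, Cd3g was called lower than thymocytes in both tumor groups and Thy1 in control tumors. Other T lineage markers reached lower levels in tumors. Cd2 and Cd5 were at 7.04 and 7.93 in deficient tumor 3, and Cd247 was at 6.93 in control tumor 4. Their lowest levels in normal thymocytes were 11.52, 11.33 and 9.04. Cd3d fell to 9.13 in deficient tumor 3, beside 10.83 or more in normal thymocytes, and was called lower in both tumor groups. Rag1 was at 5.52 in deficient tumor 2 and 4.80 in control tumor 5, beside 11.58 or more in normal thymocytes. Cd8a was at 8.23 and 7.60 in these tumors, beside 12.53 or more in normal thymocytes. The mean of 12 T lineage markers was 9.30 to 10.14 in deficient tumors, 9.31 to 10.45 in control tumors and 11.25 to 11.26 in normal thymocytes. Of these 12 markers, 7 (58.3%) were called lower in each tumor group than in thymocytes and none higher. Over all genes 19.0% were called lower in deficient tumors and 11.3% in control tumors. The part of the T lineage markers in the differences from thymocytes was not tested.

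Control tumors 1 and 2 stood apart from control tumors 3, 4 and 5. Across genes they correlated on average at 0.972 and 0.971 with deficient tumors, but at 0.949 and 0.942 with control tumors 3 to 5. The 75th percentile of all probe sets was 8.50 to 8.60 in the deficient tumors and in these 2 control tumors, and 8.25 to 8.30 in control tumors 3 to 5 and 8.13 to 8.21 in normal thymocytes. For the family genes, the counts of G1/S and G2/M targets and the other called genes named, values without them are given where they change a call or a direction or move the value by over 1.5 times.

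Promoter windows of 8 of the 10 genes were at hand from RefSeq (GRCm38.p6), 10 windows in all, each read over the 250 bases before a transcript start. The consensus E2F site was searched on both strands in its 4 spellings, TTTCCCGC, TTTCGCGC, TTTGCCGC and TTTGGCGC. It lay in 3 of the 10 windows and in 1.86% of 32851 promoter windows of the same length. These leave out a chromosome that holds none of the 10 windows. The 3 windows, of E2f3, E2f7 and Rbl1, are shown because they hold the motif. E2f3, E2f7 and Rbl1 were called higher in deficient tumors than in thymocytes, and so was E2f6, whose window holds none. E2f7 was not called in control tumors. The part of the motif in these levels was not tested. Each window shown is written 5′ to 3′ on the strand of the gene and ends at the base before the start, with the E2F motif in capitals.
E2f3, chr13:29986064-29986313, minus strand: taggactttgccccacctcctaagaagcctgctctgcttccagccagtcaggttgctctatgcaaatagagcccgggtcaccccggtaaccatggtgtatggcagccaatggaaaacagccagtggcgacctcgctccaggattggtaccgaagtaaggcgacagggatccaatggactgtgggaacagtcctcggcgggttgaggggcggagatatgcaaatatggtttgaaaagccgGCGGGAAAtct
E2f7, chr10:110745189-110745438, plus strand: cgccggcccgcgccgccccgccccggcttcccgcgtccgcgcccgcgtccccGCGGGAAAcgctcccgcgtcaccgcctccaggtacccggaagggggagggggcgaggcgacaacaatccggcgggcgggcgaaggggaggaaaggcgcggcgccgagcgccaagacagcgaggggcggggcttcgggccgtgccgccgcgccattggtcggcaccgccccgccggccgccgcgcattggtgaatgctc
Rbl1, chr2:157204535-157204784, minus strand: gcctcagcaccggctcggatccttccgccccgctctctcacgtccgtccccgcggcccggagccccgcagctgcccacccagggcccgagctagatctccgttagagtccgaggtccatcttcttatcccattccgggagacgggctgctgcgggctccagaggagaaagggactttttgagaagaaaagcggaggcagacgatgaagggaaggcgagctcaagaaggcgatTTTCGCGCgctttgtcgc
The motif stood 4 to 11 bases before the start of E2f3 and 11 to 18 bases before that of Rbl1, and 191 to 198 bases before that of E2f7. In E2f3 and E2f7 it read TTTCCCGC on the opposite strand, and in Rbl1 TTTCGCGC on the strand of the gene. The windows of E2f1, E2f2, E2f6, E2f8 and Rbl2 and a further window of E2f3 held none of these spellings. That of E2f1 lies at a start inside the annotated gene, and the further windows of E2f2 and E2f3 lie downstream of their first ones. The E-box CACGTG, which MYC dimers bind, lay in 1 of the 10 windows, the further one of E2f3, and in 6.02% of all windows. A match is a description of the sequence and not a measured binding site.

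Against normal thymocytes, 8 of the 10 genes were called in the Dnmt3a-deficient tumors, 7 higher and 1 lower, where 37.6% of all genes were called, 18.7% higher and 19.0% lower. The 7 higher genes were E2f1, E2f3, E2f5, E2f6, E2f7, Rb1 and Rbl1, and the lower one was Rbl2. In control tumors 7 of the 10 were called, where 24.4% of all genes were, 13.0% higher and 11.3% lower. E2f3, E2f5, E2f6 and Rbl1 were higher, and E2f2, E2f8 and Rbl2 were lower. The median log2 difference of the 10 genes from thymocytes was 0.92 in deficient tumors and 0.65 in control tumors (0.23 without control tumors 1 and 2), beside medians of -0.10 and -0.08 over all genes. With arrays quantile-normalized again or with cyclic loess, 4 genes were called higher and 2 lower in deficient tumors, while control tumors kept counts of 4 and 3. The arrays of the groups did not overlap for 9 of the 10 genes in deficient tumors and thymocytes (49.7% of all genes) and for 7 of the 10 in control tumors and thymocytes (27.7% of all genes). Both comparisons use the same 3 thymocyte arrays. In bulk RNA, fewer cells of a type and less RNA per cell cannot be told apart.

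**Figure D1:**
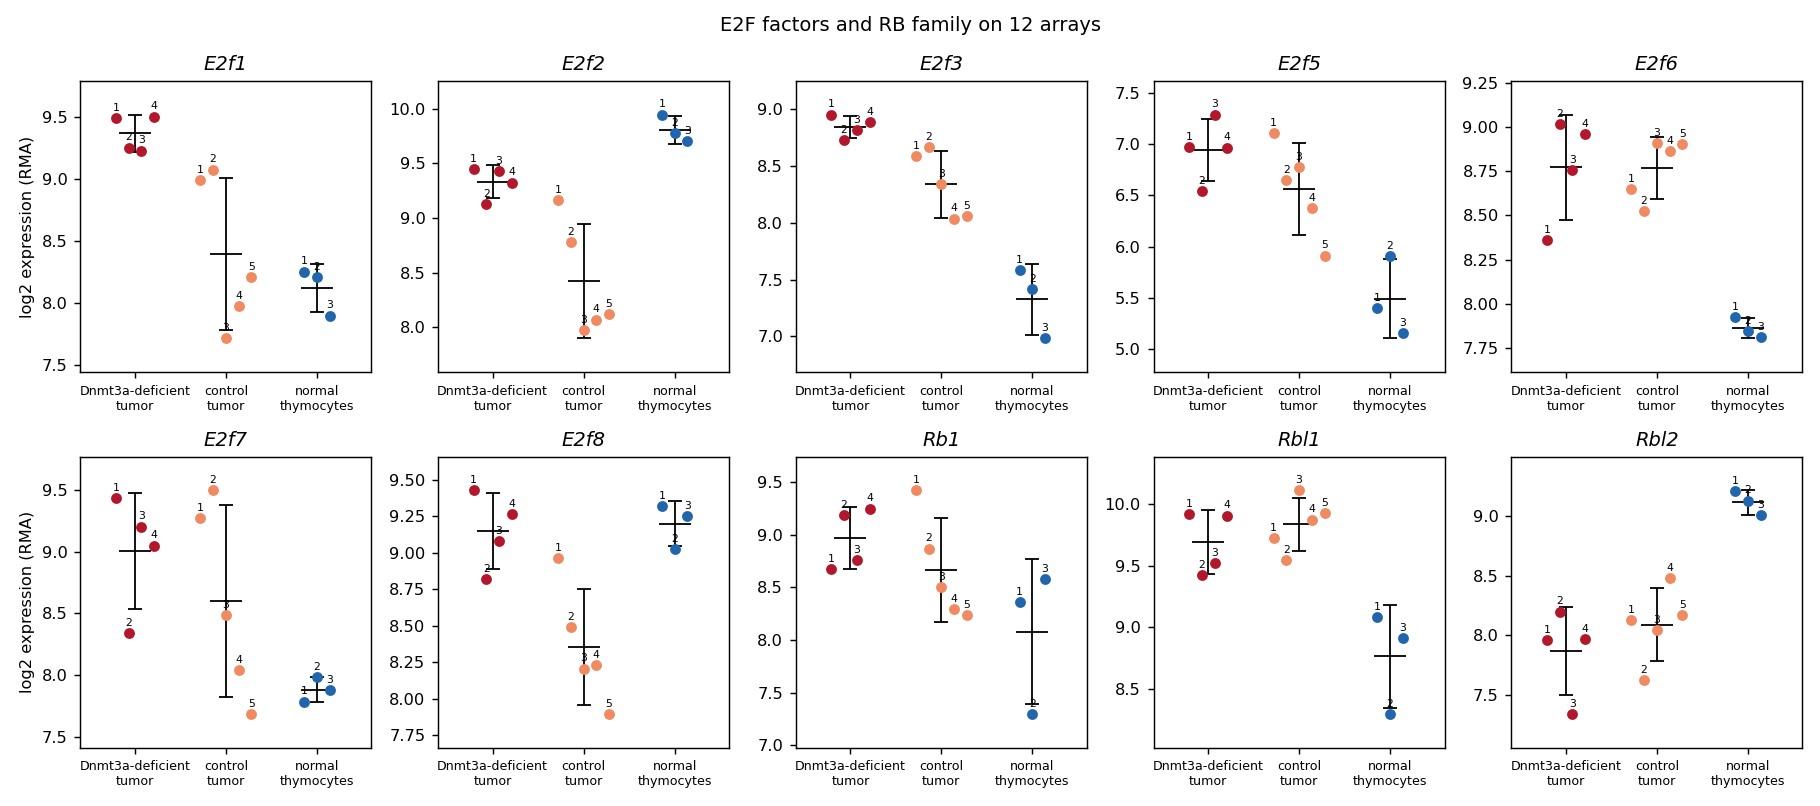
Log2 expression (y axis, RMA values, own scale in each panel) of the 10 genes on each array, by group. Numbered points are arrays, horizontal bars are group means and vertical bars are SD (4 Dnmt3a-deficient tumors, 5 control tumors, 3 normal thymocytes). In E2f1, E2f2, E2f3, E2f7, E2f8 and Rb1 control tumors 1 and 2 lie above control tumors 3 to 5, and Rbl2 is highest in the thymocytes.

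Among the activators, E2f1 and E2f2 were arranged differently over the 3 groups. E2f1, the founding E2F factor, had log2 levels of 9.49, 9.25, 9.23 and 9.50 in deficient tumors 1 to 4, 8.99, 9.08, 7.72, 7.98 and 8.21 in control tumors 1 to 5, and 8.25, 8.21 and 7.90 in normal thymocytes 1 to 3. Every deficient tumor lay above every other array, while control tumors 3, 4 and 5 lay in or below the range of the thymocytes. E2f1 was higher in deficient tumors than in thymocytes by log2 1.25 (SE 0.289, limma adjusted p = 0.00448), with means of 9.37 ± 0.15 (SD, n = 4) and 8.12 ± 0.19 (n = 3). Control tumors averaged 8.39 ± 0.61 (n = 5) and differed from thymocytes by 0.27 (SE 0.277, adjusted p = 0.521), a value that turned to -0.15 without control tumors 1 and 2.

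E2f2, an activator with high levels in lymphoid tissue, had log2 levels of 9.45, 9.13, 9.43 and 9.32 in deficient tumors 1 to 4, 9.16, 8.78, 7.98, 8.07 and 8.12 in control tumors 1 to 5, and 9.95, 9.77 and 9.70 in normal thymocytes 1 to 3. All tumors lay below all thymocytes, with control tumors 3 to 5 lowest. The control tumors were lower than thymocytes by a log2 difference of -1.39 (SE 0.243, adjusted p = 9.6e-04). For deficient tumors the difference was -0.47 (SE 0.254, adjusted p = 0.159), not called. It was called with arrays quantile-normalized again (-0.73, adjusted p = 0.0127), cyclic loess (-0.79, adjusted p = 0.0111), with array weights (adjusted p = 0.0439) and with only these 2 groups in the fit (adjusted p = 0.0174).

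E2f3, the third activator, has alternative promoters that give a full-length and a shorter protein. Its brighter probe set had log2 levels of 8.95, 8.73, 8.82 and 8.88 in deficient tumors 1 to 4, 8.58, 8.67, 8.34, 8.03 and 8.06 in control tumors 1 to 5, and 7.58, 7.41 and 6.98 in normal thymocytes 1 to 3. The 3 groups did not overlap, and the order of the means was deficient tumors, control tumors, thymocytes. Against thymocytes E2f3 was higher by log2 1.52 (SE 0.191, adjusted p = 5.1e-05) in deficient tumors and by 1.01 (SE 0.182, adjusted p = 0.00119) in control tumors.

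A dimmer probe set, annotated to the same RefSeq transcripts of E2f3, gave another order. Its log2 levels were 7.79, 7.46, 7.50 and 7.56 in deficient tumors 1 to 4, 7.46, 7.41, 8.19, 7.76 and 7.98 in control tumors 1 to 5, and 7.33, 7.11 and 7.17 in normal thymocytes 1 to 3. Here control tumors 3 and 5 were highest, where the brighter set had control tumors 1 and 2 above them. In a fit of all 20870 single-symbol probe sets, this set was higher than thymocytes by log2 0.37 (SE 0.188, limma adjusted p = 0.138) in deficient tumors and by 0.56 (SE 0.180, adjusted p = 0.0375) in control tumors. Which part of E2f3 each set covers is not stated in the labels or the annotation.

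**Figure D2:**
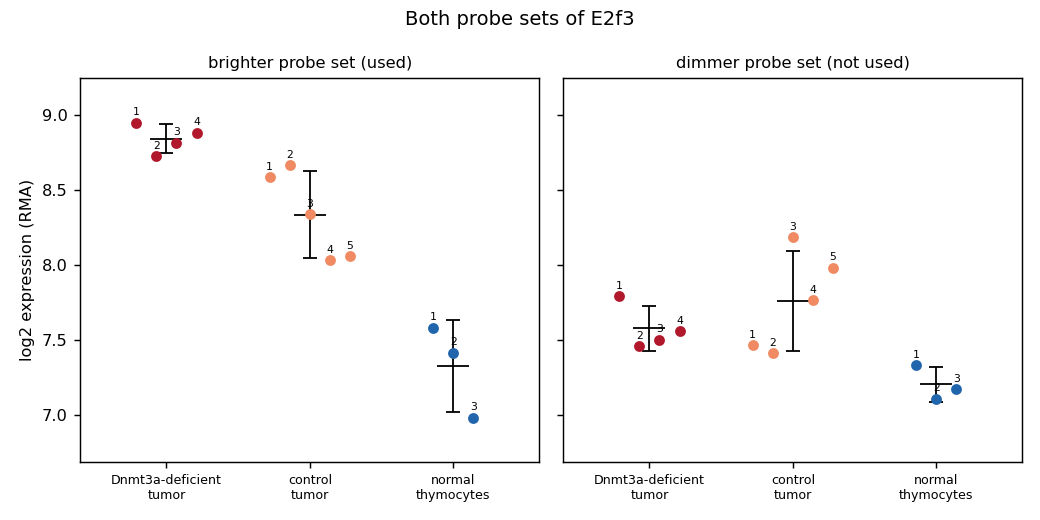
Log2 expression (y axis, RMA values, shared scale) of the brighter (left) and the dimmer (right) probe set of E2f3 on each array. Numbered points are arrays, horizontal bars are group means and vertical bars are SD. Control tumors 3 to 5 lie below control tumors 1 and 2 in the brighter set, at 8.03 to 8.34, and above them in the dimmer set, at 7.76 to 8.19.

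Among the repressors, E2f5 and E2f6 were higher in both tumor groups. E2f5, which acts with p130, had log2 levels of 6.97, 6.54, 7.29 and 6.97 in deficient tumors 1 to 4, 7.11, 6.65, 6.78, 6.37 and 5.91 in control tumors 1 to 5, and 5.40, 5.91 and 5.16 in normal thymocytes 1 to 3. The deficient tumors lay well above the thymocytes, while control tumor 5 nearly met thymocyte sample 2. The difference from thymocytes was log2 1.45 (SE 0.270, adjusted p = 0.00102) in deficient tumors and 1.07 (SE 0.258, adjusted p = 0.00794) in control tumors. E2f5 was the dimmest of the family genes described here. Its thymocyte levels lay below the medians of all probe sets on those arrays, 6.45 to 6.51. The filter that drops the dimmest 50% of genes removed it.

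E2f6, the pocket-independent repressor, had log2 levels of 8.36, 9.02, 8.75 and 8.96 in deficient tumors 1 to 4, 8.65, 8.52, 8.91, 8.86 and 8.90 in control tumors 1 to 5, and 7.93, 7.85 and 7.81 in normal thymocytes 1 to 3. Both tumor groups lay above the thymocytes and overlapped fully with each other. E2f6 was higher by log2 0.91 (SE 0.171, adjusted p = 0.00107) in deficient tumors and by 0.91 (SE 0.163, adjusted p = 0.00116) in control tumors. Quantile-normalizing the arrays again ended the call in deficient tumors (0.52, adjusted p = 0.0672).

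The atypical repressors E2f7 and E2f8, which are themselves targets of activator E2Fs, did not move together. E2f7 had log2 levels of 9.43, 8.34, 9.20 and 9.05 in deficient tumors 1 to 4, 9.27, 9.50, 8.49, 8.04 and 7.69 in control tumors 1 to 5, and 7.79, 7.99 and 7.88 in normal thymocytes 1 to 3. Every deficient tumor exceeded the thymocytes, but control tumors ranged from below them to the highest level of all arrays. The difference from thymocytes was log2 1.12 (SE 0.386, adjusted p = 0.0355) in deficient tumors and 0.71 (SE 0.369, adjusted p = 0.188) in control tumors. Without control tumors 1 and 2 the value in control tumors was 0.19 (adjusted p = 0.674). With 1 array omitted at a time, the call in deficient tumors was kept in 1 of 7 fits, with adjusted p up to 0.0937 without normal thymocytes 1. It was also lost with arrays quantile-normalized again (adjusted p = 0.112) and with cyclic loess (adjusted p = 0.0791).

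E2f8 had log2 levels of 9.43, 8.82, 9.08 and 9.27 in deficient tumors 1 to 4, 8.96, 8.49, 8.21, 8.23 and 7.90 in control tumors 1 to 5, and 9.32, 9.03 and 9.25 in normal thymocytes 1 to 3. The deficient tumors overlapped with the thymocytes, and all control tumors lay below the thymocytes. E2f8 was lower in control tumors by a log2 difference of -0.84 (SE 0.216, adjusted p = 0.0116), which was not called without normal thymocytes 1 (adjusted p = 0.0526). In deficient tumors the difference was -0.05 (SE 0.226, adjusted p = 0.882).

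The pocket proteins divided. Rbl2 encodes p130, the pocket protein best known from resting cells. Its log2 levels were 7.96, 8.20, 7.34 and 7.97 in deficient tumors 1 to 4, 8.13, 7.63, 8.05, 8.48 and 8.17 in control tumors 1 to 5, and 9.21, 9.13 and 9.0 in normal thymocytes 1 to 3. All 9 tumors lay below all thymocytes, and the tumor groups overlapped. Rbl2 was lower by a log2 difference of -1.25 (SE 0.217, adjusted p = 6.3e-04) in deficient tumors and -1.02 (SE 0.207, adjusted p = 0.00270) in control tumors, a fold of 0.422 and 0.492 of the thymocyte signal.

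Rbl1 encodes p107, which accumulates in dividing cells. It had log2 levels of 9.92, 9.43, 9.52 and 9.91 in deficient tumors 1 to 4, 9.72, 9.54, 10.11, 9.87 and 9.92 in control tumors 1 to 5, and 9.08, 8.29 and 8.91 in normal thymocytes 1 to 3. All tumors lay above all thymocytes, the opposite arrangement to Rbl2. The difference from thymocytes was log2 0.93 (SE 0.209, adjusted p = 0.00367) in deficient tumors and 1.07 (SE 0.200, adjusted p = 0.00150) in control tumors. After cyclic loess normalization the value in deficient tumors was 0.61 (adjusted p = 0.0531).

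Rb1, the retinoblastoma tumor suppressor itself, had log2 levels of 8.67, 9.19, 8.76 and 9.25 in deficient tumors 1 to 4, 9.42, 8.87, 8.50, 8.29 and 8.24 in control tumors 1 to 5, and 8.36, 7.30 and 8.58 in normal thymocytes 1 to 3. The deficient tumors lay just above the thymocytes, of which sample 2 was about 1 log2 unit below the others, and the control tumors overlapped with them. Rb1 was higher in deficient tumors by log2 0.89 (SE 0.328, adjusted p = 0.0478), a call kept in 1 of 7 fits with 1 array omitted. It differed by 0.50 (adjusted p = 0.252) without normal thymocytes 2, and was not called with arrays quantile-normalized again (adjusted p = 0.179), with cyclic loess (adjusted p = 0.151) or with the replicate number as a block (adjusted p = 0.0746). In control tumors the difference was 0.59 (SE 0.314, adjusted p = 0.202), and 0.27 (adjusted p = 0.567) without control tumors 1 and 2.

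**Figure D3:**
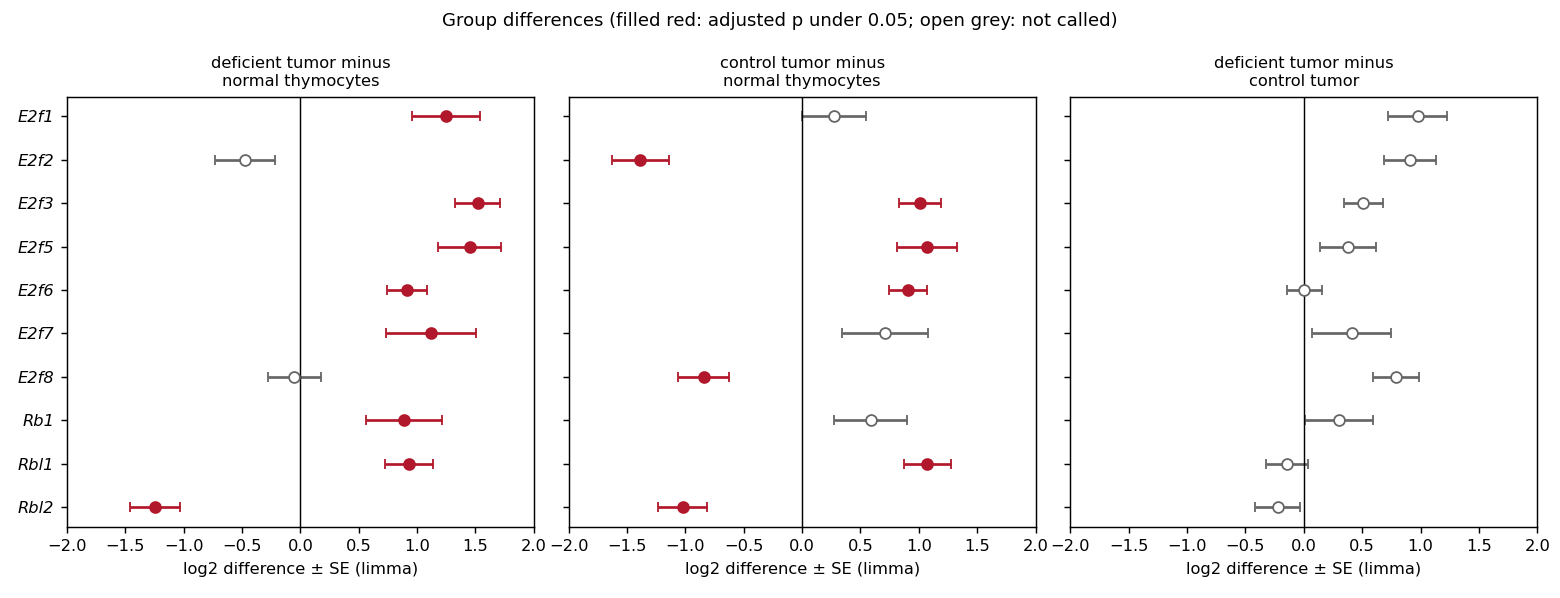
Log2 differences with standard errors from limma (x axis) for the 10 genes (y axis) in the 3 comparisons. Filled red points have an adjusted p under 0.05 over all genes and open grey points do not. Rbl2 is lower in both tumor groups, E2f2 and E2f8 are called lower in control tumors, and no gene is called between the tumor groups.

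Deficient tumors were then set against control tumors, which asks how the family differs with the loss of Dnmt3a. Limma called none of the 10 genes, where 0.818% of all genes were called. At an unadjusted p under 0.05 there were 4, E2f1, E2f2, E2f3 and E2f8, all higher in deficient tumors, where 20.2% of all genes passed, 12.6% of all genes being higher. E2f1 was higher by log2 0.98 (SE 0.254, adjusted p = 0.0861), and every deficient tumor lay above every control tumor. E2f2 differed by 0.91 (SE 0.223, adjusted p = 0.0756) and E2f8 by 0.79 (SE 0.198, adjusted p = 0.0772), with overlap in both. E2f3 differed by 0.51 (SE 0.168, adjusted p = 0.136) in its brighter probe set, without overlap, and by -0.19 (SE 0.165, adjusted p = 0.545) in the dimmer one. The groups did not overlap for E2f1 and E2f3, 2 of the 10, both higher in deficient tumors, beside 6.15% of all genes without overlap and 3.80% higher without overlap.

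For the other 6 genes the tumor groups were closer. E2f7 differed by log2 0.41 (SE 0.339), E2f5 by 0.38 (SE 0.237), Rb1 by 0.30 (SE 0.288), Rbl1 by -0.14 (SE 0.184) and Rbl2 by -0.22 (SE 0.191), with adjusted p from 0.380 for E2f5 to 0.688 for Rbl1. E2f6 differed by 0.00 (SE 0.150, adjusted p = 0.994). A p above the threshold does not show that their levels were equal. Without control tumors 1 and 2 the differences were 0.93 for E2f7, 0.59 for E2f5, 0.62 for Rb1, -0.28 for Rbl1, -0.36 for Rbl2 and -0.12 for E2f6, of which E2f7 was called.

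Levels of several members varied widely within the control tumors. Control tumors 1 and 2 both exceeded control tumors 3 to 5 in E2f1, E2f2, E2f3, E2f7, E2f8 and Rb1, 6 of the 10 genes, and lay below them in E2f6 and Rbl1. Over all 19309 genes the shares were 25.5% above and 21.1% below. The SD of E2f1 was 0.15 in deficient tumors (n = 4), against 0.61 in control tumors (n = 5), and that of E2f2 was 0.15 in deficient tumors, against 0.52 in control tumors. Without control tumors 1 and 2, 25.3% of all genes were called, 16.1% higher, and 5 family genes were called higher in deficient tumors: E2f1 (log2 1.40, SE 0.156, adjusted p = 1.1e-04), E2f2 (1.28, SE 0.129, adjusted p = 7.0e-05), E2f8 (1.04, SE 0.165, adjusted p = 9.6e-04), E2f7 (0.93, SE 0.247, adjusted p = 0.0165) and E2f3 (0.70, SE 0.158, adjusted p = 0.00730). These 2 arrays were set aside because they lay close to the deficient tumors, which by itself widens such differences, so these values are no separate evidence.

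Markers of other cells moved within the control tumors too. The mean of 8 neutrophil markers was 5.45 to 6.07 in deficient tumors, 8.38 and 8.25 in control tumors 3 and 4, 5.82 to 5.83 in control tumors 1, 2 and 5, and 6.57 to 6.98 in normal thymocytes. The mean of 5 adipocyte markers reached 8.31 in control tumor 2, beside 5.07 to 5.43 elsewhere. Means of B cell, macrophage, erythroid, stromal and thymic epithelial markers lay between 5.47 and 8.04 on all arrays, and of these 5 lists at most 2 members were called in either direction in any comparison. The lists are short. Against thymocytes, 14.3% to 40% of a list was called in deficient tumors and 0% to 40% in control tumors, beside 37.6% and 24.4% of all genes. The 40% was 2 of 5 erythroid markers, lower in both tumor groups. Between tumor groups 1 of 6 B cell markers, Cd79b, was called, higher in deficient tumors, beside 0.818% of all genes called. The part of all these cell types, and of the 75th percentile, in the differences of E2F genes was not tested.

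The partners of the family were read from a list of DP proteins and the MuvB complex, which with E2F4, p107 or p130 forms the repressing DREAM complex and with B-MYB (Mybl2) or FOXM1 activates mitotic genes. Of its 10 genes, 5 were higher and 1 lower than thymocytes in deficient tumors, and 3 were higher and 1 lower in control tumors. These are 60% and 40% of the list, beside 37.6% and 24.4% of all genes. Tfdp1, which encodes the partner DP1, was higher by log2 1.37 (SE 0.127, adjusted p = 5.0e-06) in deficient tumors and 1.06 (SE 0.121, adjusted p = 3.8e-05) in control tumors. The MuvB subunits Lin54 and Lin9 were higher by 1.61 and 1.05 in deficient tumors and by 1.20 and 0.73 in control tumors, and Lin37 was lower by differences of -0.51 and -0.54. Lin9 was not called in control tumors (0.51, adjusted p = 0.0693) without control tumors 1 and 2. The calls of Lin37 were lost without normal thymocytes 2 or normal thymocytes 3. Tfdp2 was called in deficient tumors (0.95, adjusted p = 0.0479) and not in control tumors (0.73, adjusted p = 0.139), and its call was lost in 8 of 15 alternatives, with adjusted p up to 0.199 without normal thymocytes 2.

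Mybl2 was the 1 gene of this list called between the tumor groups. Its log2 levels were 9.31, 9.39, 9.58 and 9.61 in deficient tumors 1 to 4, 8.73, 8.90, 8.62, 8.75 and 8.89 in control tumors 1 to 5, and 8.74, 8.47 and 8.40 in normal thymocytes 1 to 3. All deficient tumors exceeded all other arrays, and control tumors 1 and 2 lay with the other control tumors. The difference between tumor groups was 0.70 (SE 0.123, adjusted p = 0.0294). It was not called in 8 of 18 alternatives, among them the fit of only these 2 groups (adjusted p = 0.0681), and the adjusted p reached 0.114 without deficient tumor 4. Foxm1 differed by 0.67 (SE 0.248, adjusted p = 0.163) and E2f4 by 0.39 (SE 0.114, adjusted p = 0.110) between them, and Lin52 and Rbbp4 were called in no comparison. E2f4, with a mean of 10.29 over all arrays, was brighter than each of the family genes described above. Its difference from thymocytes was not called in deficient tumors (0.28, SE 0.130, adjusted p = 0.109) or in control tumors (-0.11, SE 0.124, adjusted p = 0.570).

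Regulators upstream of the pocket proteins changed in both directions. Of 17 genes, 6 were higher and 6 lower in deficient tumors than in thymocytes, and 3 were higher and 6 lower in control tumors. These are 70.6% and 52.9% of the list, beside 37.6% and 24.4% of all genes. Cyclin E2 (Ccne2), a partner of CDK2, had log2 levels of 8.67, 8.38, 8.96 and 8.81 in deficient tumors 1 to 4, 7.92, 8.04, 7.36, 6.94 and 7.22 in control tumors 1 to 5, and 6.0, 5.76 and 6.63 in normal thymocytes 1 to 3. The 3 groups did not overlap, and cyclin E2 was the 1 gene of the list called between tumor groups (1.21, SE 0.243, adjusted p = 0.0453). It was not called in 9 of 18 alternatives, among them the fit of only these 2 groups (adjusted p = 0.101), and the adjusted p reached 0.148 without deficient tumor 3. The CDK4/6 inhibitor Cdkn2d, p19INK4d, was lower than thymocytes by differences of -3.29 and -2.43 in deficient and control tumors, and cyclin D3 (Ccnd3) by -2.25 in both. The endogenous Myc gene was lower by -3.19 and -2.95, and the labels do not say whether its probe set reads the MYC that drove the tumors.

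E2F target genes of the G1/S transition were higher in part. Of 37 measured, 15 were higher and 1 was lower in deficient tumors than in thymocytes, and 14 were higher and 1 was lower in control tumors. These are 43.2% and 40.5% of the list, beside 37.6% and 24.4% of all genes called. The median log2 difference of the list was 0.45 and 0.10, beside -0.10 and -0.08 over all genes. It was 0.15 and -0.04 with arrays quantile-normalized again, 0.15 and -0.06 with cyclic loess, and 0.19 in control tumors without control tumors 1 and 2. The largest were the checkpoint kinase Chek1 (3.20 in deficient and 2.76 in control tumors) and the polymerase alpha subunit Pola1 (3.11 and 2.59), followed by Brca1 (2.07 and 1.64) and the kinase activator Dbf4 (1.78 and 1.72). Uhrf1, a cofactor of DNA methylation maintenance, was the lower gene in both (-0.67, adjusted p = 0.0484, and -0.70, adjusted p = 0.0488). These calls were lost in 8 of 15 and 11 of 17 alternatives, median centring among them in both (adjusted p = 0.0922 and 0.0630), and in all fits without 1 thymocyte array. In control tumors Uhrf1 differed by -0.35 (adjusted p = 0.144) without control tumors 1 and 2. Chek1, for which thymocyte sample 2 was lowest, had log2 levels of 9.71 to 10.07 in deficient tumors, 9.25 to 9.71 in control tumors, and 7.01, 5.78 and 7.40 in normal thymocytes 1 to 3. Pola1 was also lowest in thymocyte sample 2, with 6.37, 5.64 and 7.06 in normal thymocytes 1 to 3.

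Between the tumor groups limma called none of the 37 targets, and 8 passed an unadjusted p under 0.05, all higher in deficient tumors, 21.6% of the list beside 20.2% of all genes. Thymidylate synthase (Tyms) had the smallest p, with a difference of 1.31 (SE 0.296, adjusted p = 0.0606). Without control tumors 1 and 2, 6 targets were called higher and 3 lower in deficient tumors, where 25.3% of all genes were called. In most of these targets control tumors 1 and 2 were not placed as for E2f1. In 16 of 37 (43.2%) they lay below control tumors 3 to 5, among them Pcna, Cdc6 and Mcm6, beside 21.1% of all genes. In 9 of 37 (24.3%) they lay above, beside 25.5% of all genes. The array mean of the list was 9.65 to 9.97 in deficient tumors, 9.46 and 9.45 in control tumors 1 and 2, 9.60 to 9.72 in control tumors 3 to 5, and 9.01 to 9.21 in normal thymocytes.

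Genes of G2 and mitosis bound by MuvB were higher in 20 of 27 cases in deficient tumors and in 14 of 27 in control tumors, and none was lower. These are 74.1% and 51.9% of the list, beside 37.6% and 24.4% of all genes. With arrays quantile-normalized again 18 were higher and 2 lower in deficient tumors, and with cyclic loess 15 were higher and 2 lower there. Their median log2 difference from thymocytes was 1.22 and 0.77. The checkpoint kinase Bub1 (4.15 and 3.08), the spindle motor Kif11 (3.88 and 3.01) and the kinetochore motor Cenpe (3.53 and 2.51) differed most. For these genes normal thymocytes 2 was lowest, at 5.33, 6.10 and 4.62. Normal thymocytes 1 and 3 were at 6.76 and 6.64 for Bub1, 7.30 and 7.72 for Kif11, and 5.95 and 6.01 for Cenpe. None of the 27 genes was called between the tumor groups by limma. At an unadjusted p under 0.05, 17 of 27 passed (63%, beside 20.2% of all genes), all higher in deficient tumors. The smallest p was in survivin, Birc5 (0.62, SE 0.169, adjusted p = 0.0945). Without control tumors 1 and 2, 15 were called, all higher in deficient tumors, where 25.3% of all genes were called, 16.1% higher. Those 2 arrays were set aside because they lay close to the deficient tumors, so this count is no separate evidence. The array mean of these genes was 9.62 to 9.82 in deficient tumors, 9.56 and 9.46 in control tumors 1 and 2, 9.25, 8.94 and 8.76 in control tumors 3, 4 and 5, and 7.95 to 8.41 in normal thymocytes. Here control tumors 1 and 2 lay near the deficient tumors, as for E2f1.

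**Figure D4:**
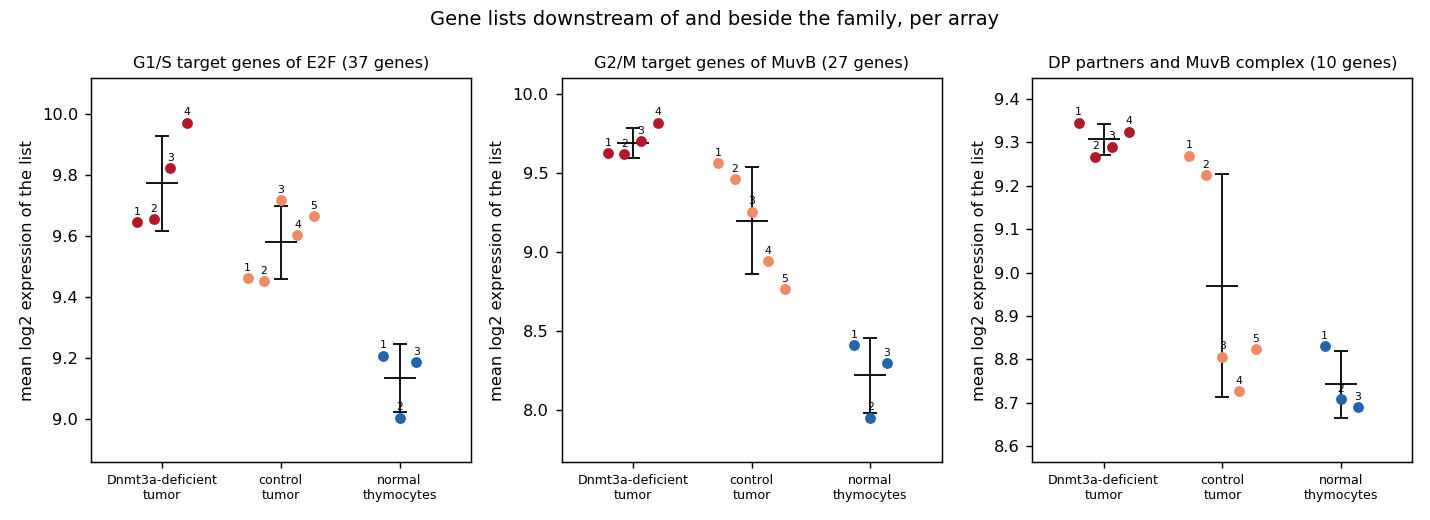
Mean log2 expression (y axis, RMA values, own scale in each panel) of G1/S targets of E2F, G2/M targets of MuvB, and DP and MuvB genes on each array. Numbered points are arrays, horizontal bars are group means and vertical bars are SD. Control tumors 1 and 2 are the lowest control tumors for the G1/S targets, at 9.46 and 9.45, and the highest for the other lists.

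Among the 10 genes themselves, profiles over the 12 arrays were compared after centring each gene on its own mean. The closest pairs were E2f3 with E2f5, with a root mean square difference of 0.264 log2 units, E2f2 with E2f8 (0.279), and E2f6 with Rbl1 (0.302). Genes outside the family were ranked in the same way for the 7 members whose group means spanned at least 1. The 3 nearest were Wars2 (0.149), Rnf126 and Taf5l for E2f1, Adcy6 (0.163), Ldlrad4 and Gtf2h4 for E2f2, and Vma21 (0.128), Polr1d and the polymerase delta subunit Pold3 for E2f3. They were Lrr1 (0.187), Tefm and Timm21 for E2f5 and Znrf3 (0.172), Mcur1 and Ric1 for E2f7. For Rbl1 they were the mitotic gene Dlgap5 (0.146), Qtrt2 (0.155) and the spindle assembly gene Tpx2 (0.159), and for Rbl2 Nipal3 (0.159), Inpp1 and Arhgef1. These members' own root mean square deviations ran between 0.505 for Rbl1 and 0.663 for E2f7, and the 12 arrays share the 3 groups.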

How the data were processed

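RNA of 4 Dnmt3a-deficient tumors, 5 control tumors and 3 normal thymocyte samples was hybridised to whole-transcript arrays of 1 colour. Groups and replicate numbers come from the sample titles. The authors deposited log2 values per probe set. Per the submitters' processing notes these come from RMA, run in the Affymetrix Expression Console, with no version stated there. RMA corrects background, normalizes quantiles and summarises probes, yet the quartiles of the deposited arrays differ, and whether arrays were normalized together is not given. Precision is limited by how many arrays each group has.

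Of 23858 probe sets, 20870 had 1 gene symbol, and the brightest set per gene was kept (19309 genes). One model of 3 group means was fitted to all 12 arrays with limma 3.58.1 in R 4.3.3, with eBayes, two-sided tests and Benjamini-Hochberg adjustment over all genes. The fit was tested on simulated data. The lists held 169 entries, of which 157 were measured; the others were not analysed here. The genes and lists were chosen with earlier results of these data known. Named genes are the 10 family genes, all DP and MuvB genes, Dnmt3a and Myc, from each other pathway list the 3 called genes with the largest difference in each comparison (or the gene with the lowest p if there was no call), and the 3 genes nearest in profile to each member whose group means span at least 1. Pcna, Cdc6, Mcm6, Uhrf1, and the split of the control tumors, were picked after their values were seen. The deviations of same-numbered arrays correlated at 0.34 for deficient tumor 1 with control tumor 1. For all other same-numbered arrays the correlations were -0.13 to 0.09, so the replicate number was not treated as pairing. Alternatives changed the normalization, filter, array weights, samples, replicate block and E2f3 probe set.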

Additional observations from a re-analysis of the deposited data

Results flagged for a closer look

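In control tumor 5 the level of Dnmt3a was 9.57, set apart from the other 4 control tumors, of which the highest was 8.58. The gap was 0.716 of the range of the group, above the critical value of Dixon's test. Of 22 groups of arrays tested in this way for the 10 family genes and Dnmt3a, this was the 1 past that value, and chance alone puts about 1 in 20 there.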

How the results depend on the processing

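Against thymocytes, the total counts of called family genes, G1/S targets and G2/M targets, both directions together, stayed within 1.5 times the reported ones under all alternatives run; the split by direction did move with the normalization, to 4 higher and 2 lower family genes in deficient tumors and 13 higher and 3 lower G1/S targets under a repeated quantile normalization or cyclic loess. For family genes, leaving out 1 array gave 6 to 7 calls in deficient tumors and 6 to 7 in control tumors, for G1/S targets 14 to 15 and 10 to 14, and for G2/M targets 18 to 20 and 11 to 15. Between the tumor groups the counts of 0 did move: leaving out 1 array gave 0 to 4 family genes, 0 to 3 G1/S targets and 0 to 6 G2/M targets. The 3 lists hold 10, 37 and 27 measured genes. Without control tumor 1 the counts were 3, 2 and 5, where 5.24% of all genes were called. Without control tumor 2 they were 4, 3 and 6, where 7.68% of all genes were called. Median centring gave 3 family genes and 2 G1/S targets, array weights 4, 5 and 15, the filter on dim genes 1 G1/S target, and leaving out control tumors 1 and 2 gave 5, 9 and 15. In these settings 1.96%, 17.2%, 2.02% and 25.3% of all genes tested were called, in that order. Over all genes the count between tumor groups was 158, against 378 with median centring, 3328 with array weights, 104 with the replicate block, 1 with only these groups in the fit and 4886 without control tumors 1 and 2. Median centring split it into 331 higher and 47 lower, a second quantile normalization into 66 and 45 and cyclic loess into 93 and 64, against 114 and 44, and for deficient tumors against thymocytes median centring gave 3922 and 2571, against 3602 and 3660. Cyclic loess moved the median of all genes in that comparison to -0.00, against -0.10.

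Values near 0 changed sign. E2f8 in deficient tumors against thymocytes was 0.027 with median centring and -0.144 to 0.0583 when 1 array was left out. E2f6 between tumor groups was -0.17 after a second quantile normalization or cyclic loess, -0.0369 with array weights, -0.12 without control tumors 1 and 2 and -0.0777 to 0.141 when 1 array was left out. E2f1 in control tumors against thymocytes was -0.15 without control tumors 1 and 2. The dimmer E2f3 probe set, an alternative chosen after seeing the data, gave -0.19 between tumor groups. The cause was not tested. Genes outside the family were run under the same alternatives after seeing the data. With the replicate number as a block, 7 family genes were called in each tumor group against thymocytes and 0 between tumor groups, with Rb1 in deficient tumors losing its call (adjusted p = 0.0746), and Mybl2 (adjusted p = 0.0775) and Ccne2 (adjusted p = 0.110) losing theirs between tumor groups.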
